A study of Mus musculus with 3 samples.

Results

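Acyl-CoA thioesterases cleave fatty acyl-CoA into free fatty acid and coenzyme A, and 10 of their genes, Acot1 to Acot6, Acot8 and Acot11 to Acot13, are described here across 3 mouse arrays. The genes were chosen by symbol: a probe set belonged to the set if the platform's probe table gave it one of these symbols alone. Each of the 10 genes had 1 probe set, and together they are 10 of the 19938 genes measured. The set was chosen with earlier results of these arrays in view, so its values are a description and carry no test.

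Total RNA came from 3 sources, with 1 array for each. The first array held cultured mouse fibroblasts and the second held cells named DiBA, in a series on brown adipocytes obtained by direct conversion. The third was named BA, and brown adipose tissue is given as its source and tissue, although its description also calls it cultured cells. The labels give no strain, age, sex, passage or converting agent for any array, and state no treatment. With 1 array per group there was no spread between replicates, no p-value could be given, and every difference below lacks a replicate check. Values are deposited probe set intensities on a linear scale. Differences and folds were computed on log2(intensity + 1), which understates changes of dim genes. A gene was called at a difference of at least 2-fold if the brighter of both arrays reached 69.2, the median intensity over every probe set and array (hereafter the median of all probe sets). Probe sets of different genes bind with different strength, so levels are compared between arrays and not between genes.

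Long-chain and medium-chain fatty acids are activated to acyl-CoA before they can be oxidised, stored or used in signalling, and thioesterases reverse that step. The family has members in the cytosol, the mitochondrial matrix and the peroxisome. Brown fat burns fatty acids for heat, and free fatty acids also activate its uncoupling protein, so enzymes on both sides of the acyl-CoA pool are active there. Acot1 to Acot6 share one catalytic fold and lie side by side on chromosome 12 (RefSeq genes, GRCm38.p6). Acot8, Acot11, Acot12 and Acot13 have the unrelated HotDog fold and lie on chromosomes 2, 4, 13 and 13. Several of these genes are known targets of the fatty acid receptor PPAR alpha in liver.

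Promoter sequence is shown for Acot4 and Acot11, which were called higher in BA than in fibroblasts, and for Acot12, which had the same value on all 3 arrays. Each sequence is the 250 bases before an annotated RefSeq start, in build GRCm38.p6, read 5′ to 3′ on the strand of the gene. Capitals mark AGGTCA or its reverse complement TGACCT, the 6 bases that nuclear receptors of the PPAR type recognise in pairs.
Acot4, chr12:84038129-84038378, plus strand: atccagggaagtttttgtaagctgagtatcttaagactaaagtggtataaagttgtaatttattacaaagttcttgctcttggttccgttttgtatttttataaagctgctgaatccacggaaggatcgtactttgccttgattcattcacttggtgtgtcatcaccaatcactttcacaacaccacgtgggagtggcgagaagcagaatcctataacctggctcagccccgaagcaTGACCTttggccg
Acot11, outer start, chr4:106805008-106805257, minus strand: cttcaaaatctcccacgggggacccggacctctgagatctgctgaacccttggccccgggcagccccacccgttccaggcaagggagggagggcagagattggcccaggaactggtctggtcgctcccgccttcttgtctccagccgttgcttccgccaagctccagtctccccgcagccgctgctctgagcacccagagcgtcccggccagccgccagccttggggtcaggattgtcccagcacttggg
Acot11, inner start, chr4:106799832-106800081, minus strand: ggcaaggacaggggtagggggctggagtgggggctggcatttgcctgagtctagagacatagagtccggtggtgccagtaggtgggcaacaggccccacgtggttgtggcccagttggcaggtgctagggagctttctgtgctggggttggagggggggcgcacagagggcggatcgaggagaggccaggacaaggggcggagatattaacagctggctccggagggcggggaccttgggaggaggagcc
Acot12, chr13:91741271-91741520, plus strand: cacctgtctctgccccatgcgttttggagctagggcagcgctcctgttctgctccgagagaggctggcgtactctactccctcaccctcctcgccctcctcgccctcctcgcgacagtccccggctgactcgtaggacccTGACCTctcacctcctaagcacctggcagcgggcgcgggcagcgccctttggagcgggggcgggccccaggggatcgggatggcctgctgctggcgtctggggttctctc
In the Acot4 sequence the motif begins 13 bases before the start, and in the Acot12 sequence 110 bases before it. Neither Acot11 sequence holds it. The promoter table listed 11 windows for 8 of the 10 genes, each running from 250 bases before to 50 bases after a start. Acot6 and Acot13 had no window, so their promoters were not examined. On both strands, AGGTCA occurred in 6 of the 11 windows, for 4 genes, Acot3, Acot4, Acot5 and Acot12, beside 16.3% of all 32851 promoter windows. The windows of Acot3, and likewise those of Acot5, overlap almost fully, so the 6 are not separate cases. The paired form AGGTCANAGGTCA, where N is any base, occurred in 0 of the 11 windows and in 0.0396% of all windows. TATAAA occurred in 1 of the 11 windows, for Acot4, against 13.6% of all windows. GGGCGG occurred in 4 of the 11, for Acot1, Acot8, Acot11 and Acot12, against 35.7%. TTGCNNAA, a form of the motif of C/EBP factors, occurred in 1 of the 11, for Acot1, against 10.8%. Among the 4 genes with AGGTCA, Acot4 differed between the arrays by more than 2-fold while Acot3, Acot5 and Acot12 were dim on every array. The Acot4 call rests on low intensities, 23.2 in fibroblasts and 99.0 in BA, and is lost with intensities under 69.2 raised to it. These matches describe letters in a window and show no binding.

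Among the HotDog-fold genes, Acot11 and Acot13 were far brighter in DiBA and BA than in fibroblasts. Acot11, first described as a thioesterase of brown fat that is induced by cold, had an intensity of 66.1 in fibroblasts, 769 in DiBA and 913 in BA. The fibroblast array was thus just under the median of all probe sets, and both other arrays were well above it. Acot11 was 11.5-fold higher in DiBA and 13.6-fold higher in BA than in fibroblasts. With 11621 genes tested for DiBA against fibroblasts, 1.7% had a larger difference than Acot11, and 1.63% of the 11663 tested for BA against fibroblasts did. DiBA was 1.19-fold below BA, a difference of -0.25 (log2).

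Acot13, a small thioesterase of long-chain acyl-CoA found with mitochondria, had an intensity of 253 in fibroblasts, 1082 in DiBA and 1221 in BA. It lay above the median of all probe sets on every array, so raising low intensities to that median left its differences as they were. Acot13 was 4.26-fold higher in DiBA and 4.81-fold higher in BA than in fibroblasts. In those comparisons 5.83% and 5.81% of the genes tested had a larger difference. DiBA lay 1.13-fold below BA.

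The remaining HotDog-fold genes differed little. Acot8, a peroxisomal thioesterase of broad substrate range, read 123 in fibroblasts and 131 in both DiBA and BA, a 1.06-fold difference. Acot12, a cytosolic enzyme of liver that cleaves acetyl-CoA, had an intensity of 29.4 on all 3 arrays, under the median of all probe sets. Hepatocyte markers were dim too: all 7 measured, from Alb to Apoh, lay under 69.2 on every array. Any link between these values and that of Acot12 was not tested.

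**Figure D1:**
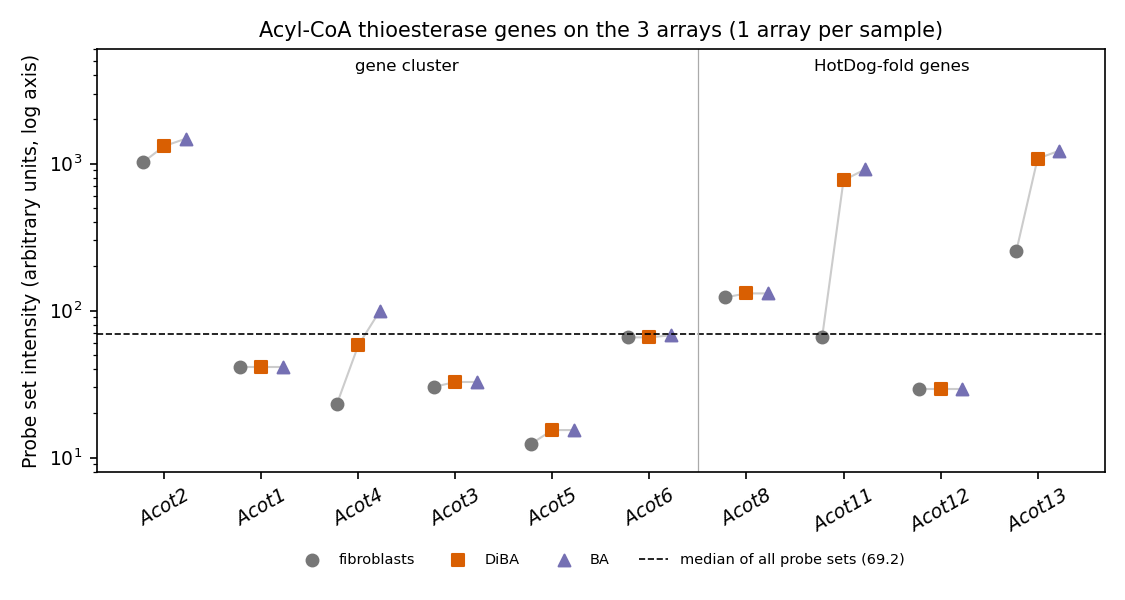
Probe set intensity (log axis) of the 10 acyl-CoA thioesterase genes, with 1 point per array and a dashed line at 69.2, the median of all probe sets. Acot11 and Acot13 stand higher on the DiBA and BA arrays than on the fibroblast array, Acot4 crosses the line on the BA array alone, and points of different genes are not on a common scale.

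In the chromosome 12 cluster, 4 of the 6 genes stayed under 69.2 on all 3 arrays, and only Acot4 was called in any comparison. Acot2, the mitochondrial matrix enzyme for long-chain acyl-CoA, had an intensity of 1019 in fibroblasts, 1316 in DiBA and 1476 in BA. It was bright on every array and 1.29-fold and 1.45-fold higher in DiBA and BA than in fibroblasts, which is below the 2-fold threshold. The DiBA array was 1.12-fold below BA.

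Acot4, a peroxisomal enzyme that in mouse cleaves succinyl-CoA, had an intensity of 23.2 in fibroblasts, 58.0 in DiBA and 99.0 in BA. Only the BA array was above the median of all probe sets. BA was 4.13-fold higher than fibroblasts and was called, with 7.07% of genes tested showing a larger difference. DiBA was 2.44-fold higher than fibroblasts but both of those arrays were under 69.2, so no call was made. With all intensities under 69.2 raised to it, the differences became 0 for DiBA and 0.51 (log2) for BA, and the call for BA was lost. The Acot4 difference between DiBA and BA was -0.76 (log2), or 1.69-fold lower in DiBA, the lowest of the 11076 genes that passed the level filter in that comparison. It passed through the BA array alone, and with low intensities raised the difference was -0.51. Without the filter, 1 other gene was at least 2-fold lower, so the rank holds within the filter only.

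The other 4 genes of the cluster were dim. Acot1, the cytosolic long-chain enzyme, had an intensity of 41.4 on all 3 arrays. Acot3, a peroxisomal long-chain enzyme, had 30.3 in fibroblasts and 32.7 in both DiBA and BA. Acot5, a peroxisomal medium-chain enzyme, had 12.4 in fibroblasts and 15.4 in both other arrays. These differences were at most 0.30 (log2), at levels under the median of all probe sets, and are given as values only. Acot6, which is also peroxisomal, had 65.8 in fibroblasts and DiBA and 67.9 in BA. The genes of this cluster are close paralogs, and whether their probes cross-react was not tested. The values of all 6 genes, Acot2 and Acot4 included, are therefore uncertain, and those of Acot1, Acot3, Acot5 and Acot6 in particular.

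Of the 4 nearest protein-coding neighbours of the cluster, Riox1 reached 69.2 on all 3 arrays and Dnal1 in fibroblasts alone. Dnal1, which follows Acot6, had an intensity of 85.5 in fibroblasts, 66.3 in DiBA and 64.9 in BA, with differences from fibroblasts of -0.36 and -0.39 (log2). Heatr4, before the cluster, had 40.4 in fibroblasts and 40.9 in both other arrays, and Pnma1, after it, had 38.7 on every array, so neither could be called. Riox1, next to Acot2, had the identical value of 70.7 on all 3 arrays, just above 69.2. Within the cluster, Acot1 and Acot3, on either side of Acot4, were under 69.2 on every array.

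**Figure D2:**
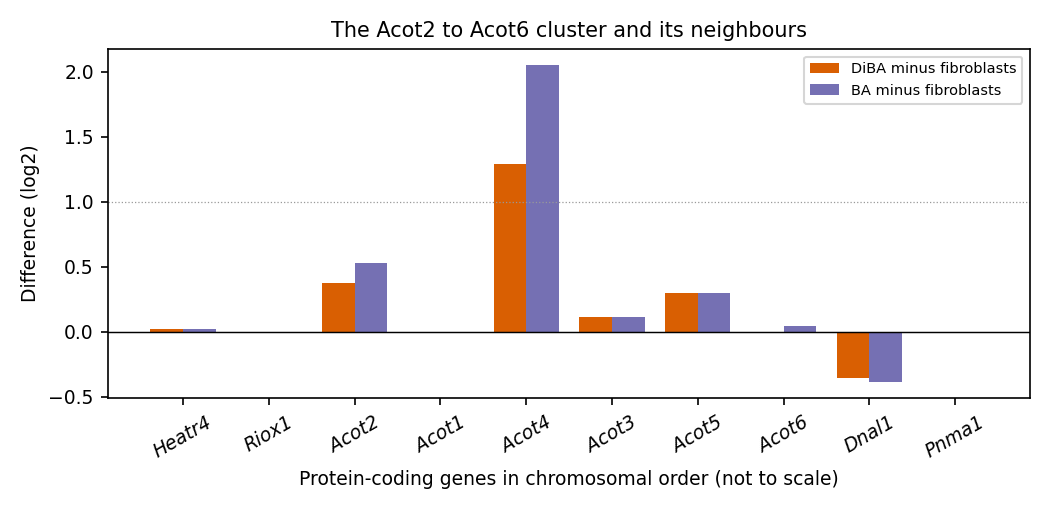
Log2 differences of DiBA (orange) and BA (purple) from the fibroblast array for the 6 cluster genes and 2 protein-coding neighbours on each side, in chromosomal order and not to scale. Acot4 has the tallest bars, at 1.29 and 2.05, beside Acot1 at 0 and Acot3 at 0.11, both under 69.2 on every array. The dotted line marks 2-fold.

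Counted over all 10 genes, 2 were called higher and 0 lower in DiBA than in fibroblasts, with 4 of the 10 passing the level filter. Among all genes tested, 14.7% were called higher and 13.2% lower in that comparison. In BA against fibroblasts, 3 were called higher and 0 lower, with 5 of the 10 passing the filter, beside 16.3% higher and 16.4% lower among all genes tested. Since the set was chosen with these contrasts known, nothing is read from the counts. The median difference of the 10 genes was 0.20 (log2) in both comparisons, beside 0 over all 19938 genes. That median is set largely by dim probe sets, since 5 of the 10 genes were under 69.2 on every array, and it does not show that those genes were alike between the samples. Both comparisons use the same fibroblast array.

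Between DiBA and BA, 0 of the 10 genes were called in either direction, beside 1.75% of genes tested called higher and 0.0% called lower in DiBA. The median of the 10 genes was -0.02 (log2), and 0 over all genes. Acot2, Acot4, Acot6, Acot11 and Acot13 were lower in DiBA, with differences from -0.04 for Acot6 to -0.76 for Acot4. Of the 11076 genes tested, Acot8, at a difference of exactly 0, ranked 4571 from the lowest and 3610 from the highest. Lower values in DiBA were thus common among all genes, and nothing is read from the signs. The other 5 of the 10 genes, Acot8 among them, had exactly the same value on both arrays. Such identical values were common: 47.3% of all probe sets were identical on DiBA and BA. Acot1 and Acot12 were identical on all 3 arrays, as were 33.4% of all probe sets. A difference of 0 is therefore no measure of how alike 2 samples were. With each array centred on its median, Acot1, Acot3, Acot5, Acot8 and Acot12 lay at -0.08 in DiBA against BA. The median of all genes did too, so the signs depend on the scaling.

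**Figure D3:**
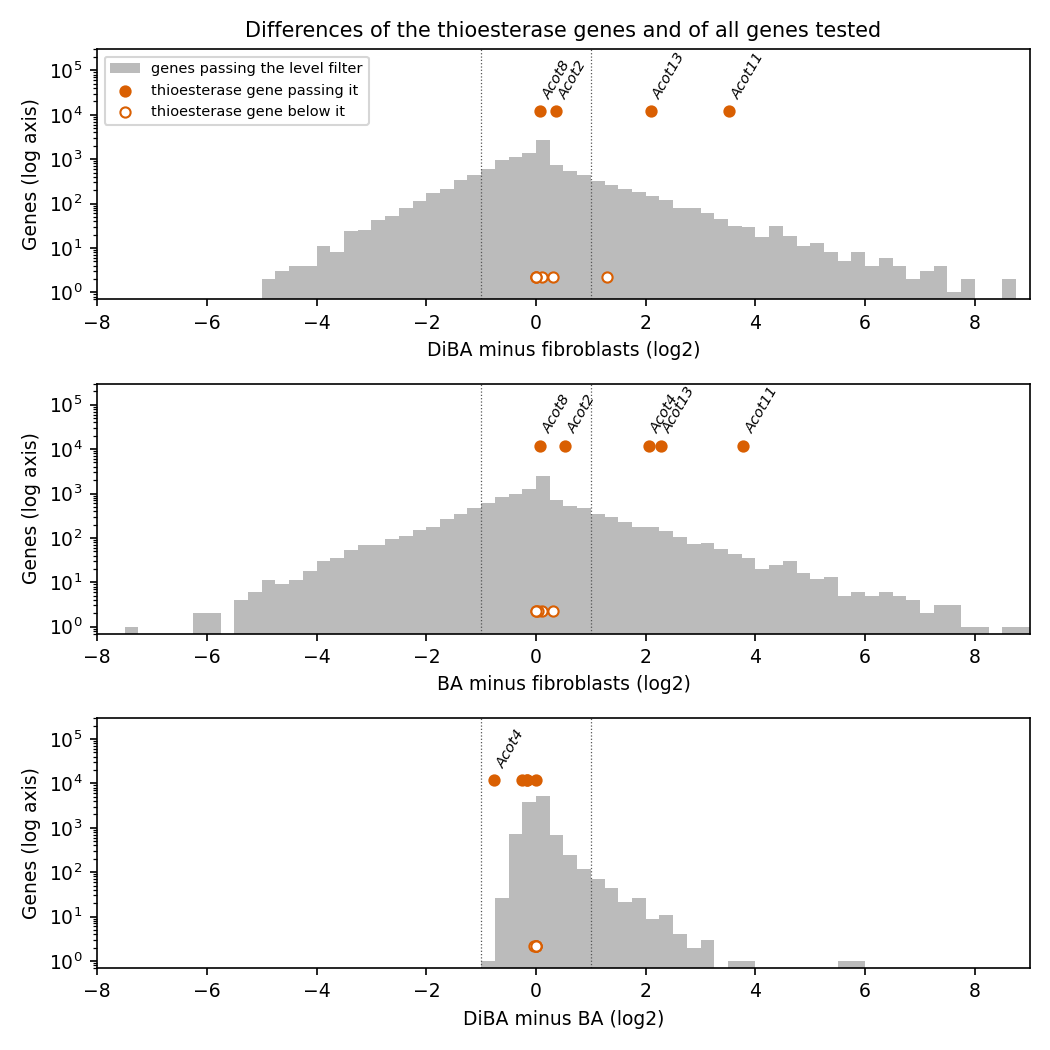
Histograms (log axis) of the log2 differences of all genes passing the level filter in each of the 3 comparisons, with the acyl-CoA thioesterase genes as filled points where they pass it and open points where they do not. The height of a point has no meaning, and dotted lines mark 2-fold. Acot11 and Acot13 lie right of the line in both comparisons with fibroblasts, and Acot4 lies at the left edge of the DiBA minus BA histogram.

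Markers of several cell types moved with Acot11 and Acot13. For comparison, 14.7% of all genes tested were called higher and 13.2% lower in DiBA than in fibroblasts, and 16.3% and 16.4% in BA. All 8 brown adipocyte markers were at least 2-fold higher in DiBA and in BA than in fibroblasts, and their summed intensity was 358 in fibroblasts, 43102 in DiBA and 45129 in BA. All 8 endothelial markers were also higher in both, with sums of 520, 3080 and 3677, and all 8 skeletal muscle markers, with sums of 1017, 10793 and 12335. Of 8 macrophage and immune markers, 7 were higher in DiBA and 6 in BA, with sums of 1040, 3688 and 3657. Alas2, the 1 erythrocyte marker measured of 4 listed, had an intensity of 25.9 in fibroblasts, 260 in DiBA and 340 in BA. Of 8 fibroblast markers, 5 were lower in DiBA and 6 in BA, with sums of 29912, 11682 and 8490. No marker was at 0 on any array, and the lowest value in fibroblasts was 14.9 for brown adipocyte, 32.6 for endothelial, 22.1 for muscle and 26.0 for immune markers. The part of these cell types in the thioesterase values was not tested. In bulk RNA, fewer cells of a type and less RNA per cell cannot be told apart.

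Of 12 other thioesterases and related acyltransferases, 1 was called higher and 1 lower than in fibroblasts, both in DiBA and in BA. The level filter was passed by 7 of them for DiBA and 6 for BA. Over all genes tested, 14.7% were called higher and 13.2% lower in DiBA, and 16.3% and 16.4% in BA. Nothing is read from such small counts. Acot7, a cytosolic enzyme abundant in brain, had an intensity of 753 in fibroblasts, 302 in DiBA and 331 in BA, and was 2.49-fold and 2.27-fold lower in DiBA and BA. It was the 1 gene of the 12 in this list called lower. Ppt2, a lysosomal thioesterase, was the 1 called higher, at 219 in fibroblasts, 445 in DiBA and 476 in BA, and it passed the threshold narrowly at 2.03-fold and 2.17-fold. Ppt1, its lysosomal relative, had 1095 in fibroblasts and 1190 in both other arrays.
The mitochondrial Acot9 had an intensity of 613 in fibroblasts, 574 in DiBA and 641 in BA, and its paralog Acot10 had 62.4, 72.1 and 68.8 in the same order. Them4, another mitochondrial thioesterase, had 120, 148 and 168, and Them6 had 81.8, 122 and 139. None of these 4 genes reached 2-fold. Them5, Baat, which conjugates bile acids, its relative Acnat1, and Olah, a hydrolase of medium-chain fatty acid synthesis, had identical values under 69.2 on all 3 arrays. Acnat2 had 19.4 in fibroblasts and DiBA and 28.0 in BA. The median of the list was 0 (log2) for DiBA and 0.09 for BA against fibroblasts.

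The lists of genes that make, bind and use acyl-CoA all had medians above 0 in DiBA and in BA against fibroblasts. Their counts, here and below, stand beside 14.7% higher and 13.2% lower among all genes tested in DiBA. In BA those shares were 16.3% and 16.4%. The lists were fixed with earlier results of these arrays known, so the counts are a description and carry no test. Of 18 acyl-CoA synthetases and fatty acid transport proteins with synthetase activity, 16 were measured and 10 were higher in DiBA than in fibroblasts, with 0 lower and a median of 1.78 (log2). The same count held for BA, with a median of 2.09. The peroxisomal Slc27a2 had an intensity of 16.7 in fibroblasts, 1971 in DiBA and 2191 in BA. Acsm3, a medium-chain synthetase, had 23.3, 2579 and 2903 in that order, and the mitochondrial acetyl-CoA synthetase gene Acss1 had 48.2, 1377 and 1634. All 3 were under the median of all probe sets in fibroblasts, so the size of their differences rests in part on dim values.

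Of 6 acyl-CoA binding proteins, 2 were higher in DiBA, 3 in BA and 0 lower, with medians of 0.50 and 0.61. Dbi, the main cytosolic acyl-CoA binding protein, had an intensity of 2040 in fibroblasts, 6008 in DiBA and 6455 in BA. Acbd4 was 2.51-fold and 2.88-fold higher. The peroxisomal membrane protein gene Acbd5 was 1.99-fold higher in DiBA and 2.35-fold in BA, so it lay on either side of the threshold.

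Carnitine carries acyl groups into mitochondria. Of the 8 genes listed for this step, 7 were measured, 5 were higher in DiBA and in BA than in fibroblasts, with 1 lower in DiBA and 2 in BA. Cpt2, the inner membrane transferase, had an intensity of 261 in fibroblasts, 2868 in DiBA and 3082 in BA. Slc25a20, the carnitine carrier, was 9.11-fold and 10.6-fold higher, and Crat, the carnitine acetyltransferase, 6.55-fold and 7.25-fold. The lower genes were Cpt1c, at 447 in fibroblasts, 140 in DiBA and 82.6 in BA, and in BA also Cpt1a, at 477, 395 and 233. Both belong to the carnitine palmitoyltransferase 1 family, and both were named after their values were seen.

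Oxidation genes were nearly all higher. Of 14 mitochondrial oxidation genes, all 14 were higher in DiBA and in BA, with medians of 3.21 and 3.32. Acadvl, the very-long-chain acyl-CoA dehydrogenase, had an intensity of 160 in fibroblasts, 3372 in DiBA and 3721 in BA. Hadhb, a subunit of the trifunctional protein, was 15.4-fold and 15.9-fold higher, and Acadl 13.8-fold and 14.9-fold. Of 18 peroxisomal oxidation and transport genes, 16 were measured, with 13 higher in DiBA, 15 in BA and 0 lower, and medians of 2.22 and 2.39. Abcd2, a peroxisomal acyl-CoA transporter, had 33.0 in fibroblasts, 1421 in DiBA and 1485 in BA, and Phyh was 20.3-fold and 22.4-fold higher. Ehhadh, an enzyme of the peroxisomal pathway, had 743 in DiBA and 880 in BA, or 19.1-fold and 22.6-fold above fibroblasts. Abcd2 and Ehhadh were under 69.2 in fibroblasts, so the size of their differences rests in part on dim values.

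Coenzyme A itself is made by pantothenate kinases and Coasy and cleaved by Nudix hydrolases. Of 10 genes on this list, 6 were higher in DiBA, 5 in BA and 0 lower, with medians of 1.30 and 1.35. Pank1 had an intensity of 177 in fibroblasts, 3222 in DiBA and 3646 in BA. Nudt7, a peroxisomal CoA hydrolase, was 11.9-fold and 14.7-fold higher, and Nudt8, a mitochondrial one, 4.67-fold and 5.94-fold.

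Of 9 nuclear receptors and coactivators that respond to fatty acids or partner those that do, 5 were higher in DiBA and in BA and 0 lower, with medians of 2.43 and 2.66. Ppara, which encodes PPAR alpha, had an intensity of 43.2 in fibroblasts, 1827 in DiBA and 2179 in BA. Pparg was 25.6-fold and 27.6-fold higher. Ppargc1a had 47.1, 531 and 595 in that order, and like Ppara it was under 69.2 in fibroblasts. Between DiBA and BA, 0 genes were called in any of these 8 lists, with medians from -0.18 to -0.05 beside 0 over all genes. Of all genes tested in that comparison, only 1.75% were called higher and 0.0% lower in DiBA. The absence of calls in the lists is therefore no measure of likeness.

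**Figure D4:**
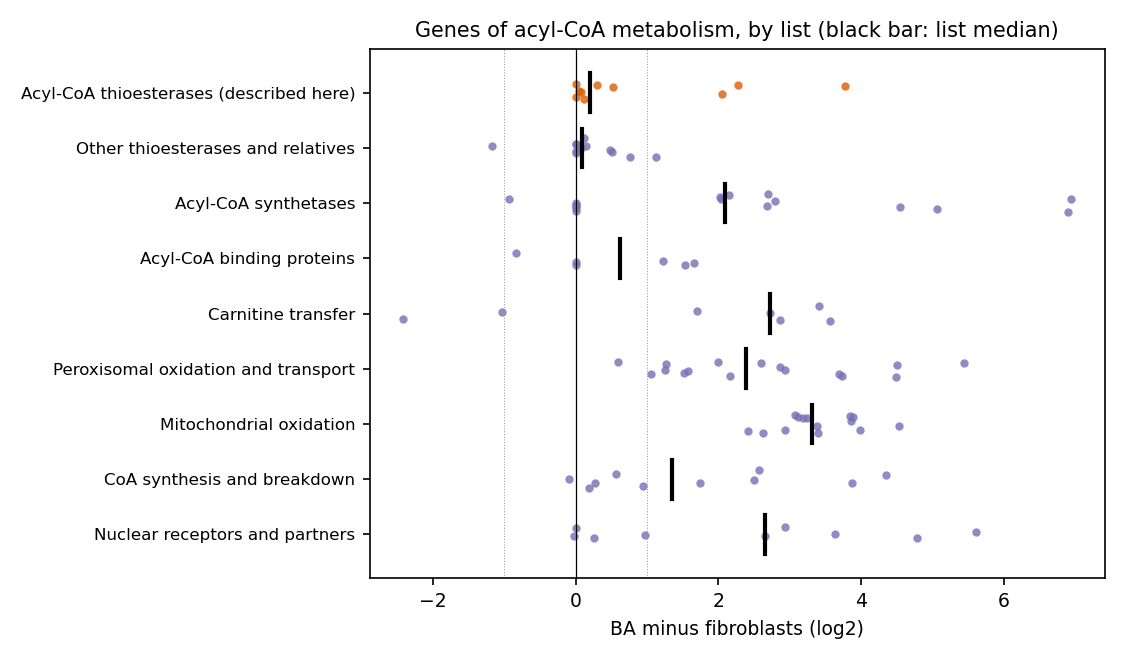
Log2 differences of BA from fibroblasts for each gene (points, spread vertically for visibility) of the 10 acyl-CoA thioesterase genes and of 8 lists of other genes, with black bars at the medians and dotted lines at 2-fold. Medians lie at 0.20 for the thioesterases, 3.32 for mitochondrial oxidation, 2.73 for carnitine transfer and 2.39 for peroxisomal oxidation, but only 5 of the 10 thioesterase genes pass the level filter, against 14 of 14, 7 of 7 and 15 of 16 in those lists, so the medians are not on an equal footing.

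For each of the 3 genes called in BA, the genes with the most similar pair of differences from fibroblasts were sought among 11226 genes outside the family, by straight-line distance on the log2 scale over both comparisons. Sugct, Dnajc28 and Inmt were nearest to Acot11, at distances of 0.022, 0.031 and 0.038. Fam214a, Sema4a and Rab3d were nearest to Acot13, at 0.008, 0.013 and 0.013. Mmrn2, Tmem184a and Tlcd3b were nearest to Acot4, at 0.167, 0.175 and 0.223. The Acot4 distances use its DiBA difference of 1.29, which lies between 2 arrays under 69.2 and becomes 0 with low intensities raised. They are not comparable with the others. The other distances rest in part on dim values too. In fibroblasts, Sugct, Dnajc28 and Inmt had intensities of 21.0, 30.7 and 28.1, and Sema4a and Rab3d had 37.2 and 64.5, all under 69.2. Fam214a had 92.5. Distances with low intensities raised were not computed. These distances rest on 3 arrays, 1 of them shared by both comparisons, and nothing is read from them beyond the likeness itself.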

How the data were processed

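Total RNA was labelled with biotin and hybridised to 3 Affymetrix arrays, 1 per sample. The deposited values are linear intensities per probe set. Per the submitters' processing notes the authors used Affymetrix Expression Console. Version, summarization, background correction and normalization: not given in the sources used here. Array medians lay between 67.7 and 71.5, and the intensities were used as normalized. Groups came from the labels.

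Of 28943 probe sets, 21789 had 1 gene symbol, 1621 had several and named no gene, and 5533 were not listed. Log2(intensity + 1) values were averaged over the probe sets of a gene, giving 19938 genes, with python 3.11.15 and pandas 2.3.3. The gene IDs of all 10 thioesterase genes gave the same symbols in the RefSeq table, and promoters were matched by symbol. The steps were tested on simulated data with differences planted in brighter genes only, so that test does not cover calls of dim genes.

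The members, lists and rules were chosen with earlier results of these data known. All 10 members were named, with every other thioesterase, and from each other list the 3 genes of largest absolute difference between DiBA and fibroblasts that passed the level filter. Alternatives covered scaling, filter, pseudocount, low values, probe sets and threshold. The number of arrays limits the precision.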

Additional observations from a re-analysis of the deposited data

Results flagged for a closer look

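Acot9, a mitochondrial thioesterase outside the set of 10, differed from fibroblasts in opposite directions, by -0.09 (log2) in DiBA and 0.07 in BA. The difference was not tested, since each value is 1 array, and both are far below 2-fold.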

How the results depend on the processing

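Of 219 values recomputed under the alternatives, 148 of the 150 differences of single genes kept their call and moved by less than 1.5-fold (0.58 on the log2 scale). The exceptions were both for Acot4 with intensities raised to the median of all probe sets, at 0.51 for BA and 0 for DiBA against fibroblasts. Much of this stability was fixed in advance. Each of the 10 genes had 1 probe set, so taking the highest probe set per gene could not change any value. The level filter stayed on the deposited intensities, so Acot1, Acot3, Acot5, Acot6 and Acot12 could not gain a call in these settings. All 15 medians also moved by less than 0.58, but they lay near 0 at the outset, so that limit says little about them. With intensities raised, the medians against fibroblasts fell from 0.20 to 0 for DiBA and from 0.20 to 0.04 for BA. All 27 counts of higher genes stayed within 1.5 times, among them 2 in BA under the 75th percentile filter or with intensities raised, and 3 in DiBA without a filter, where Acot4 left or joined. Of 27 counts of lower genes, 1 moved: with a 1.5-fold threshold, 1 gene, Acot4, was lower in DiBA than in BA, among 11 of all genes. Centring the arrays moved the median of all genes in DiBA against fibroblasts by -0.08, and Acot1, Acot6 and Acot12 then lay at -0.08. Over all genes, the 194 called higher in DiBA than in BA became 76 with the 75th percentile filter. At 4-fold, 731 higher and 372 lower genes in DiBA, and 862 and 674 in BA, replaced 1703 and 1530, and 1897 and 1913. At 1.5-fold, 2747 were lower in DiBA and 3050 in BA. DiBA against BA gave 456 higher at 1.5-fold and 33 at 4-fold. No paired analysis was possible because each group has 1 array. Low signal limits Acot1, Acot3, Acot5, Acot6 and Acot12, which did not reach the median of all probe sets on any array.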
